A study of Mus musculus with 84 samples.

Results

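H3K4me3 was compared between the adipocytes of chow-fed mice of 26 weeks (CC_s) and of 18 weeks (C), with 3 libraries in each group, 6 of the 21 H3K4me3 libraries and of the 84 samples in the series. The mice were males carrying AdipoERCre x NuTRAP on a background labelled C576BL6, in which tamoxifen turns on a Cre driven by the adipocyte gene Adipoq and the Cre turns on a tag on the nuclear envelope, so only cells with an active Adipoq promoter at the time of tamoxifen are tagged. All mice of both groups received tamoxifen. Tagged nuclei were pulled down from epididymal fat (epiAT) and assayed with CUT&Tag, in which an antibody brings a transposase to the marked nucleosomes. Neither group ate a high-fat diet. The C mice were controls for obese mice (H, 18 weeks, 12 of them on high-fat diet), and the CC_s mice were controls for mice after weight loss (HC, 26 weeks, 12 on high-fat diet and then 8 on chow). Per the study's methods the chow of the last 8 weeks was another product than the low-fat chow before it, so age and chow product cannot be told apart here. Each library was a list of peaks called separately, and the members compared were the promoters of 21851 protein-coding genes (41438 start sites in the GENCODE annotation of GRCm38). A promoter was taken as the 2000 bp on either side of each start site and was called marked when a peak overlapped it by at least 1 bp.

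H3K4me3 is placed by the COMPASS family of methyltransferases, which include readers of unmethylated CpG, and it sits at the start sites of genes that are transcribed or ready to be. In cells that do not use a developmental gene, its CpG-rich promoter often carries a little H3K4me3 together with H3K27me3, the mark of Polycomb repression. In adipocytes the strongest and widest H3K4me3 lies over genes of fat storage and hormone secretion such as Adipoq and Lep.

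Adipocyte markers were still marked at 26 weeks, and the promoters that no longer had a peak were mostly weakly marked ones at 18 weeks. Those promoters were chosen from the same peak lists, so their weakness was partly set by the choice. With all peaks, 379 promoters were marked in 3 of 3 C and 0 of 3 CC_s libraries (lost), which was 1.73% of all promoters and 3.12% of the 12135 marked in 3 of 3 C libraries, while 0 were gained. Of the listed promoters marked in 3 of 3 C libraries, 9 of 24 lineage transcription factors (Msx1, Emx2 and Gata2 among them), 10 of 62 histone genes, 4 of 25 genes induced by interferon (Isg15, Ifit1, Rsad2, Oasl2) and 3 of 13 markers of adipose progenitors (Dpp4, Ly6a, Fmo2) were lost. Of adipocyte markers 0 of 20 were lost, which at a share of 3.12% over all promoters does not set so short a list apart. With the number of peaks held equal, 1 of 79 lineage transcription factors and 5 of 67 histone genes were lost. So were 0 of 31 interferon-induced genes and 1 of 20 progenitor markers, against 0.622% of all promoters. At the 9756 promoters marked in 6 of 6 libraries (kept), the level of the mark differed with an adjusted p under 0.05 (limma) at 9. The count of lost promoters rested on how the lists were made equal, and it fell to 136, 43 or 4 when the number of peaks, of marked promoters or of covered base pairs was held the same.

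The promoter sequences of genes on which these results turn are given here as RefSeq has them on GRCm38.p6 from 250 bases before to 50 after a start site. Mycn (chr12:12941787-12942086, minus strand) encodes a growth-promoting transcription factor, Msx1 (chr5:37824536-37824835, minus strand) a homeobox factor, and Elk3 (chr10:93311110-93311409, minus strand) an ETS factor. All 3 were lost with all peaks and at equal peak numbers. Adipoq (chr16:23146286-23146585, plus strand) encodes the hormone adiponectin and was kept. Capitals mark CpG, of which these windows held 14, 29, 31 and 0. They do not stand for their classes, whose median number of CpG was 13 at lost and 21 at kept promoters. Those medians use the mean over all GENCODE start sites of a gene, by which Mycn held 7.5 and Elk3 24.3.
Mycn: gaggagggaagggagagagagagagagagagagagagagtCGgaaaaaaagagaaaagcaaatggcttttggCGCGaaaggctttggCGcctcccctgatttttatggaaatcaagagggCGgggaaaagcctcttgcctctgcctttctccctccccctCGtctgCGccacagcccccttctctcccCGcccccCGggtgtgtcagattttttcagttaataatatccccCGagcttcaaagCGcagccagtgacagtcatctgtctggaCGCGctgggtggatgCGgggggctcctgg
Msx1: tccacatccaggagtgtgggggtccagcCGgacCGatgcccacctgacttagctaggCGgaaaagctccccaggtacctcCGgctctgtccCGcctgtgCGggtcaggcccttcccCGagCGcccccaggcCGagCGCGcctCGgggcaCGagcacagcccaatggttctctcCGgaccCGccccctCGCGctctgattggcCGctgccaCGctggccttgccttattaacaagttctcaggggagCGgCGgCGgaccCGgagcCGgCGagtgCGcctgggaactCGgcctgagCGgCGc
Elk3: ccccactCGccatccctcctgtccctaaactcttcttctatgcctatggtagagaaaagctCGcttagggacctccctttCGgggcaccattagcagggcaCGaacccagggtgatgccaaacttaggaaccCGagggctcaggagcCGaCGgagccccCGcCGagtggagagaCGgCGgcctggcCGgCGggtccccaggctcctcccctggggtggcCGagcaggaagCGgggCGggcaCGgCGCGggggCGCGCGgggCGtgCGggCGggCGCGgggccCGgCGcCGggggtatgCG
Adipoq: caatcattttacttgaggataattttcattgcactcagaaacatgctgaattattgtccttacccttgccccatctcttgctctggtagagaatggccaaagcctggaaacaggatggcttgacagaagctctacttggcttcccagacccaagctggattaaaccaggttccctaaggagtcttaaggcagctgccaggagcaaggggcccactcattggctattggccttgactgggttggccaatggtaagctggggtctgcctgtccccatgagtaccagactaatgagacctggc

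Ifit1 (chr19:34640639-34640938, plus strand) and Isg15 (chr4:156200769-156201068, minus strand) are genes induced by interferon, and both were lost with all peaks. Capitals mark matches, on either strand, to GAAA, any 2 bases and GAAA, the core of the element bound by interferon-activated factors, and overlapping matches in Isg15 run together. Ifit1 held 2 matches and Isg15 held 3.
Ifit1: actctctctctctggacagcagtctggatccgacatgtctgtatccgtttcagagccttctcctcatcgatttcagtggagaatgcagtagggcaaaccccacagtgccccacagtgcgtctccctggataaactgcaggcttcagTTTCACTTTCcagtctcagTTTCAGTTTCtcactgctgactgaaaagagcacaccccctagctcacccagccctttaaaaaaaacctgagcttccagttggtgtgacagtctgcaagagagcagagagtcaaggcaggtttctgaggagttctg
Isg15: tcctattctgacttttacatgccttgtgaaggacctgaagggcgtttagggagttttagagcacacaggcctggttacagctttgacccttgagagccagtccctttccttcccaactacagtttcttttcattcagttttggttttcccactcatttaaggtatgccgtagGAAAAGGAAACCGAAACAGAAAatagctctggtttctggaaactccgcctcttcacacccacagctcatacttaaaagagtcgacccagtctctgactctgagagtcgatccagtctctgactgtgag

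The 6 libraries did not fall into 2 even groups. The C libraries held 22422, 28592 and 22444 peaks, and the CC_s libraries 12534, 14617 and 21945. Every C library had more peaks than every CC_s library, although CC_s replicate 3 came close to C replicates 1 and 3. The difference in the mean log2 number of peaks was -0.61 (exact permutation test, two-sided, p = 0.1, the smallest that 3 against 3 allows). Peaks were also narrower at 26 weeks. Their median width was 1538 ± 135 bp in C and 1217 ± 153 bp in CC_s (mean ± SD, n = 3 each, exact permutation p = 0.1). The base pairs covered came to 41.03, 53.4 and 46.6 Mb in C, and to 16.4, 19.8 and 38.1 Mb in CC_s. Between CC_s replicate 3 and the C libraries the mean Jaccard index of the covered bases was 0.6005, close to the 0.607 within C, while CC_s replicates 1 and 2 reached 0.341 and 0.401 with C and 0.560 with each other. The mean index within an age exceeded that between ages by 0.0966 (one-sided exact permutation p = 0.1). The total number of reads behind each list was not used here, so depth is unknown, and mean coverage within peaks ran from 22.1 to 28.9 in C and from 18.2 to 46.2 in CC_s.

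**Figure D1:**
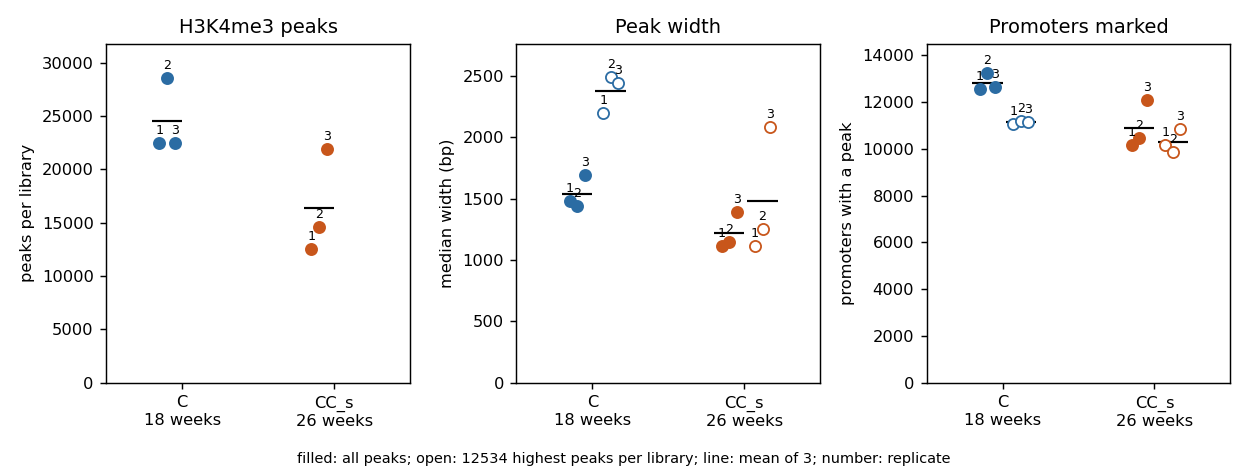
Number of peaks, median peak width in bp and number of marked promoters in each C and CC_s library, with the replicate number beside each point and the mean of 3 as a line. Filled points use all peaks and open points the 12534 peaks of highest total signal in each library, and CC_s replicate 3 lies nearer the C libraries than CC_s replicates 1 and 2 in every panel.

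Fewer promoters were marked at 26 weeks. They numbered 12573, 13239 and 12647 in the C libraries and 10144, 10464 and 12076 in the CC_s libraries. The groups did not overlap, and the share of promoters marked was 58.7% ± 1.67 in C and 49.9% ± 4.74 in CC_s (SD, n = 3 each), a difference of -8.81 percentage points (exact permutation p = 0.1). With the 12534 peaks of highest total signal in each library, the length of the shortest list, the shares were 51.0% ± 0.303 and 47.1% ± 2.33, and the groups again did not overlap (exact permutation p = 0.1). A peak lay at a promoter more often in the 2 shortest lists. The share of peaks at promoters was 57.2%, 47.9% and 55.9% in C and 83.4%, 76.4% and 55.2% in CC_s, but at equal peak numbers it was 82.4% ± 0.161 in C and 81.7% ± 1.44 in CC_s.

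How many promoters were lost or gained depended on what was held equal between the libraries. At equal peak numbers, 136 were lost and 6 gained, which was 0.622% and 0.0275% of all promoters. With equal numbers of marked promoters (10144 in each library, highest by summed signal, a choice made after seeing the data), 43 were lost and 54 gained. With equal covered base pairs, 4 were lost and 404 gained. The C libraries then kept 4038 to 4737 peaks and CC_s replicates 1, 2 and 3 kept 12534, 10381 and 4935. Of the 379 promoters lost with all peaks, 18 were among the 136 lost at equal peak numbers, which was 4.75% of the first list and 13.2% of the second. 7 promoters were lost with all peaks, at equal peak numbers and at equal numbers of marked promoters. They were Hoxc9, Fxyd7, Tmem95, Ttc30a2, Elk3, Mycn and 2900026A02Rik. Hoxc9 and Fxyd7 were also lost at equal covered base pairs, beside Cdk6 and Fam83e.

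**Figure D2:**
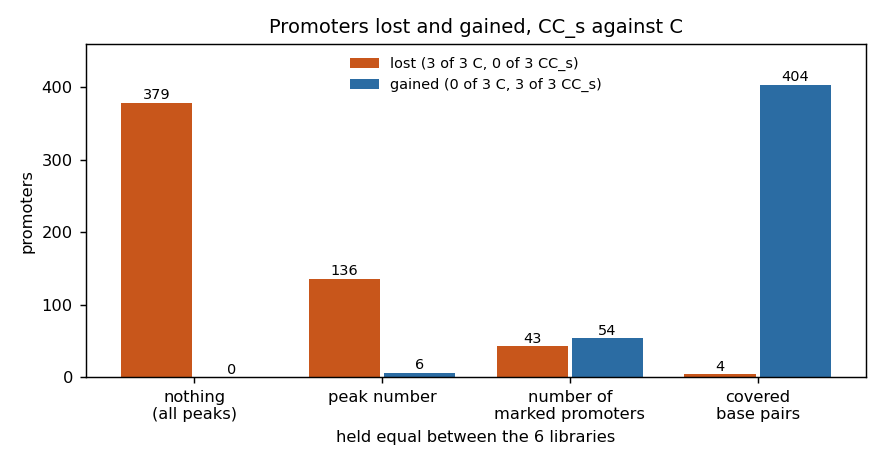
Number of promoters lost (marked in 3 of 3 C and 0 of 3 CC_s libraries) and gained (the opposite) when nothing, the number of peaks, the number of marked promoters or the covered base pairs was held equal between the 6 libraries. The lost count falls from 379 to 4 along the axis and the gained count rises from 0 to 404.

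CC_s replicate 3 decided much of the lost count. Without it, 1328 promoters were marked in 3 of 3 C and 0 of 2 CC_s libraries. Of the 12135 promoters marked in 3 of 3 C libraries, 964 were marked in 1 CC_s library, and in 949 of these that library was CC_s replicate 3. No promoter was marked in 0 of 3 C and 2 of 3 CC_s libraries, and 43 were marked in 0 of 3 C and 1 of 3 CC_s.

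The lost promoters carried weak peaks at 18 weeks. Each peak was placed by its total signal as a percentile of all peaks of its own library. The median percentile of the highest peak at the 379 promoters was 29.5, 44.3 and 30.0 in C replicates 1, 2 and 3, and at the 9756 kept promoters it was 80.2, 84.7 and 80.5. By the median over the 3 C libraries, 338 of the 379 (89.2%) lay under the 50th percentile, against 0.902% of the kept. Both classes were chosen by presence in these same lists of unequal length, so this contrast was partly set by the choice. The lowest were Exoc3l4, at 2.69, 2.47 and 8.03, and Pik3ap1, a phosphoinositide 3-kinase adaptor of B cells, at 24.3, 2.66 and 2.48. On the other side of the rule stood promoters of strong peaks that had 1 marked CC_s library, led by Fam83e, at 98.5, 98.8 and 96.7 in C and 75.3 in CC_s replicate 3, and Gm10392, at 98.2, 99.2 and 98.1 in C and 98.4 in CC_s replicate 3. The C peaks covered a start site itself in 3 of 3 libraries at 215 of the lost promoters (56.7%) and at 97.4% of the kept, and elsewhere they lay within the window only. Of the promoters lost at equal peak numbers, 86.0% were so covered.

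**Figure D3:**
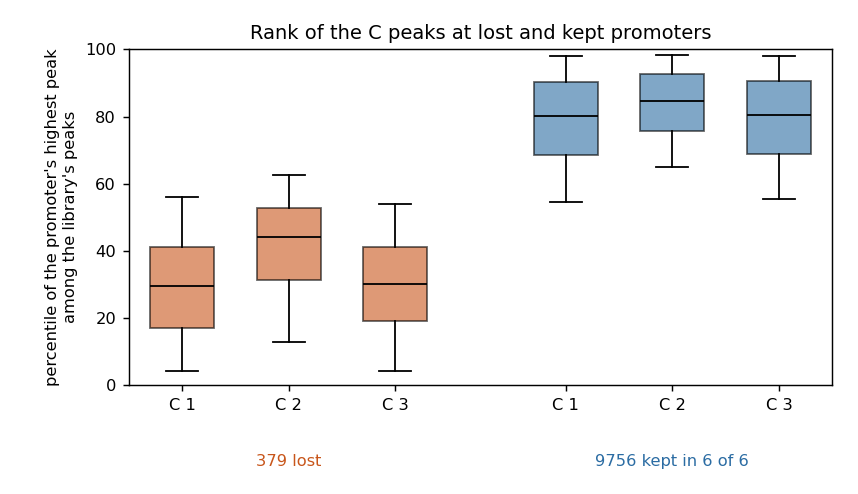
Percentile, among all peaks of the library, of the highest peak at each of the 379 lost and 9756 kept promoters in the 3 C libraries (box, quartiles and median; whiskers, 5th and 95th percentiles). The medians lie at 29.5 to 44.3 for the lost and at 80.2 to 84.7 for the kept. Both classes were chosen from these same lists.

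In CpG content the promoters lost with all peaks lay between the kept and the unmarked and near all promoters. Over the 300 bases around each GENCODE start site on GRCm38.p6, averaged over the start sites of a gene, the median number of CpG was 13 at the lost, 21 at the kept, 3 at the 8238 promoters marked in 0 of 6 libraries and 13 over all promoters. Windows with 10 or more CpG made up 60.2%, 89.2%, 16.3% and 57.5% of these classes. The median ratio of observed to expected CpG was 0.529, 0.765, 0.198 and 0.545. At the promoters lost at equal peak numbers these 3 values were higher than over all promoters, at 16.25, 74.3% and 0.619. The same motif (GAAA, any 2 bases, GAAA, either strand) stood in the window of 8.71% of the lost, 4.77% of the kept, 5.91% of the unmarked and 5.31% of all promoters, and of 4.41% of those lost at equal peak numbers. Among 31 interferon-induced genes it stood in 16 (51.6%), in 3 of the 4 that were lost and in 8 of the 17 that were kept. These shares describe letters in the window only.

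The 12 promoters with the strongest C peaks among the 18 lost both with all peaks and at equal peak numbers were those of Hoxc9, Fxyd7, Tmem95, Ttc30a2, Elk3, Pik3ip1, Apobec3, Sstr1, Slfn2, Mycn, Msx1 and Ccdc125. Hoxc9 (chromosome 15, 102976439-102985099), a homeobox gene that gives cells their position along the body axis, had peaks at the 97.6th, 95.9th and 84.8th percentile in C, with widths of 11139, 9615 and 6271 bp. No CC_s library had a peak in its window, and H3K27me3 marked it in 3 of 3 C and 3 of 3 CC_s libraries. H3K27ac marked it in 2 of 3 C and 0 of 2 CC_s libraries. In chow controls of 31 and of 39 weeks H3K4me3 marked it in 2 of 2 libraries each. Fxyd7 (chromosome 7, 31042513-31051467), a regulator of the sodium-potassium pump, shares its window with Fxyd1 and had peaks at the 85.5th, 91.4th and 87.9th percentile in C. Elk3 had peaks at the 60.2nd, 73.9th and 58.0th percentile in C, Mycn at the 56.2nd, 62.9th and 53.3rd, and Msx1 at the 55.2nd, 62.0th and 47.8th. All 3 were unmarked in every CC_s library, Mycn and Msx1 carried H3K27me3 in 3 of 3 libraries of each age, and Elk3 carried it in 2 of 3 of each. The C percentiles of the other 7, among them Pik3ip1 (an inhibitor of phosphoinositide 3-kinase), Apobec3 (an antiviral cytidine deaminase), Sstr1 (a somatostatin receptor) and Slfn2 (a Schlafen protein of immune cells), lay between 44.1 and 80.4. The other 6 of the 18 were Tnfsf13b (the B cell survival factor BAFF), Kcnd3 (a voltage-gated potassium channel), Arl5c, Vps37b, 2900026A02Rik and Gng4.

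Many promoters called lost at equal peak numbers still had a peak under the cut in a CC_s library. Of the 136, 97 were marked in 1 and 21 in 2 CC_s libraries when all peaks were used. CC_s replicate 3 held a peak at 118 of them, at a median percentile of 37.0, while their C medians were 52.7, 62.5 and 51.8. This order was fixed by the choice of the promoters. Each had to be within the 12534 highest peaks in every C library and outside them in every CC_s library. The percentiles of the genes named next restate that rule. Pdgfra, the platelet-derived growth factor receptor of adipose progenitors, lay at the 49.1st, 67.5th and 48.1st percentile in C and at the 16.4th in CC_s replicate 3, with no peak in the other two. Egr3, an immediate early factor, lay at the 45.4th, 63.3rd and 57.2nd percentile in C and at the 6.50th and 40.1st in CC_s replicates 2 and 3. The 6 promoters gained at equal peak numbers were Map3k7cl, Zfp334, Disp1, Tcea3 and the pair Ccdc116 and Ydjc, which share a window and a peak. All 6 were marked in 3 of 3 C libraries with all peaks. Disp1, needed for the release of Hedgehog ligands, lay at the 44.1st, 42.1st and 40.6th percentile in C and at the 50.9th, 22.95th and 45.6th in CC_s.

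Nearly all adipocyte markers were marked at both ages. All 20 of 20 had a peak in each C library, and 19, 19 and 20 had one in the CC_s libraries. Adipoq lay above the 99.8th percentile in all 6 libraries, and Lipe, hormone-sensitive lipase, above the 99.8th too. The Adipoq window also held an H3K27me3 peak in 3 of 3 libraries of each age, and the cause was not tested. Lep, which encodes leptin, lay at the 99.6th percentile in each C library and at the 99.1st, 86.4th and 99.4th in CC_s. Plin1, the coat protein of the lipid droplet, lay at the 99.7th, 99.5th and 99.7th in C and at the 98.7th, 84.6th and 99.8th in CC_s. Cfd, the complement factor adipsin, lay at the 92.9th, 97.1st and 85.9th percentile in C, unmarked in CC_s replicates 1 and 2 and at the 85.2nd in CC_s replicate 3. Acvr1c, an activin receptor, lay at the 83.8th, 88.1st and 79.8th percentile in C and at the 19.3rd, 43.3rd and 84.4th in CC_s, and Cd36, a fatty acid transporter, at 95.2 to 98.0 in C and at the 98.1st, 47.7th and 98.3rd in CC_s.

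Taken over 8 lists, markers of other cell types had fewer peaks at 26 weeks, as promoters as a whole did (58.7% and 49.9% marked). Of 143 such genes, 45, 52 and 50 were marked in the C libraries and 11, 10 and 30 in the CC_s libraries. The groups did not overlap, and the share was 34.3% ± 2.52 in C and 11.9% ± 7.88 in CC_s (exact permutation p = 0.1). At equal peak numbers 17, 20 and 18 were marked in C and 11, 8 and 16 in CC_s, and at equal numbers of marked promoters 16, 15 and 15 against 11, 8 and 13. Within single lists at equal peak numbers, the groups overlapped or tied in all but the progenitor and mesothelial lists. Progenitor counts were 8, 8 and 7 in C and 6, 4 and 6 in CC_s, and mesothelial counts 1, 2 and 1 against 0, 0 and 0. In the mural list of 15, 3 were marked in each C library and 4, 2 and 4 in the CC_s libraries. Neuron counts were 1, 1 and 1 against 1, 1 and 2. The mural part of the signal at promoters was 0.0332% to 0.0373% in C and 0.0335% to 0.0425% in CC_s. The 143 genes held 0.129% to 0.154% of the signal at promoters in C and 0.0799% to 0.122% in CC_s, against 0.595% to 0.643% and 0.448% to 0.671% for the 20 adipocyte markers. Many markers were at 0 in all 6 libraries, 82 of the 143 in all, among them Adgre1, Lyz2, Mrc1 and C1qa of macrophages, Cd3e of lymphocytes, Vwf and Tie1 of endothelium and Msln of mesothelium. Others of the same lists had peaks in C. Cd68, Esam, Egfl7 and Cldn5 were marked in 3 C libraries, Pecam1, Cdh5 and Wt1 in 2, and Ptprc and Csf1r in 1. With all peaks, 5, 9 and 11 of 20 endothelial markers were marked in C and 0, 0 and 3 in CC_s. Of 19 macrophage markers 4, 5 and 8 were marked in C and 0, 1 and 3 in CC_s. Of the 143 genes, 10 were among the 379 lost, against 1.73% of all promoters. Whether the share of other nuclei in the pull-down differed was not tested, and fewer cells of a type and less mark in each cell cannot be told apart in these bulk libraries.

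The lost markers of other cell types were weakly marked at 18 weeks. Over all promoters marked in 3 of 3 C libraries, 3.12% were lost. Progenitor markers lost 3 of the 13 so marked (23.1%): Ly6a at the 35.9th, 22.9th and 43.3rd percentile in C, the peptidase Dpp4 at the 26.2nd, 41.2nd and 27.3rd, and Fmo2 at the 5.999th, 25.2nd and 17.1st. At equal peak numbers 1 of the 20 progenitor markers, Pdgfra, was lost, and 0.622% of all promoters were. The progenitor genes Creb5, Ebf2, Sema3c, Bmper and Anxa3 were marked in 6 of 6 libraries. Endothelial markers lost 2 of 5, Kdr (the main VEGF receptor) and Prox1 (the lymphatic regulator), and both carried H3K27me3 in 3 of 3 libraries of each age. The other lists lost Kcnj8 (mural, 1 of 5), Krt8 (mesothelial, 1 of 3), Esrp1 (epithelial, 1 of 2) and Nefm and Slc17a7 (neuron, 2 of 5). Macrophage and lymphocyte markers lost 0 of 3 and 0 of 1, and those with a peak in some C library included Cd68, Cd14 and Fcer1g.

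Among lists of gene functions, several developmental ones had members among the lost. Of promoters marked in 3 of 3 C libraries, 9 of 24 lineage transcription factors were lost (37.5%, against 3.12% of all). Msx1, Emx2 (a homeobox gene of the urogenital tract), Alx1 (a homeobox gene of the face) and Gata2 (a factor of blood and of preadipocytes) had the strongest C peaks. All 4 carried H3K27me3 in 3 of 3 libraries at both ages. At equal peak numbers 1 of the 79 lineage factors, Msx1, was lost, and 0.622% of all promoters were. Hox genes lost 2 of 23, Hoxc9 and Hoxc10, and at equal peak numbers 2, Hoxc9 and Hoxd9. The Wnt, BMP and TGF-beta list lost 2 of 33, Lef1 and Bmp6, and at equal peak numbers Tgfb2. Ion channels lost 6 of 49, with Kcnd3, Cacnb2, Kcna7 and Kcnk6 the strongest in C.

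Histone genes, most of which are expressed while DNA is replicated, lost 10 of the 62 marked in 3 of 3 C libraries (16.1%, against 3.12% of all), and they share peaks. Hist1h4n, Hist1h2ap and Hist1h2br lie under the same peak, at the 42.6th, 51.4th and 54.7th percentile in C, and Hist1h1b lay at the 42.7th, 48.3rd and 54.8th. Of the 67 histone genes, 62, 64 and 64 were marked in the C libraries and 39, 38 and 52 in the CC_s libraries. At equal peak numbers 5 of the 67 were lost, against 0.622% of all promoters, and of these Hist1h2bl, Hist1h2ai and Hist1h3h share a peak. Genes of cell division lost 1 of 30, which is near the share over all promoters. It was Cdk1 (the mitotic kinase), at the 44.1st, 42.8th and 34.4th percentile in C. Near-identical histone genes can share reads, so their peaks are uncertain.

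Interferon-induced genes lost 4 of 25 (16%, against 3.12% of all). Isg15, a ubiquitin-like modifier, lay at the 40.9th, 67.6th and 27.3rd percentile in C and shares its window with Agrn and AW011738. Ifit1, a sensor of viral RNA, lay at the 35.7th, 42.9th and 44.3rd. Rsad2 (viperin) and Oasl2 lay at 2.64 to 46.1 across the C libraries. None of the 4 had H3K27ac or H3K27me3 at either age, 17 of the 31 listed genes were kept, and at equal peak numbers 0 of the 31 were lost, against 0.622% of all promoters.

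Among genes of fat metabolism and energy use, the thermogenic list lost 2 of 10, Elovl3 (a fatty acid elongase of brown fat) and Prdm16 (a brown fat regulator), both with H3K27me3 in 3 of 3 C libraries. Prdm16 lay at the 19.2nd, 53.3rd and 33.6th percentile in C. Lipid synthesis and storage lost 0 of 32, lipolysis and fatty acid oxidation 0 of 31, insulin signalling 0 of 28, the circadian clock 0 of 22, the respiratory chain 0 of 79, the mitochondrial ribosome 0 of 75 and the proteasome 0 of 41. With 3.12% lost over all promoters, a count of 0 does not set any single list of this length apart, and the lists were not tested together. The lists of immediate early and matrix genes lost Fosl1 (1 of 30, also near that share) and the pair Mmp14 and Fn1 (2 of 24). Solute carriers lost 9 of 198 (4.55%, against 3.12%), led by Slc16a13, Slc7a5, Slc37a1 and Slc7a11, cytochromes P450 lost Cyp1b1 and Cyp26b1 (2 of 19), and zinc finger genes lost 2 of 339 (0.590%).

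**Figure D4:**
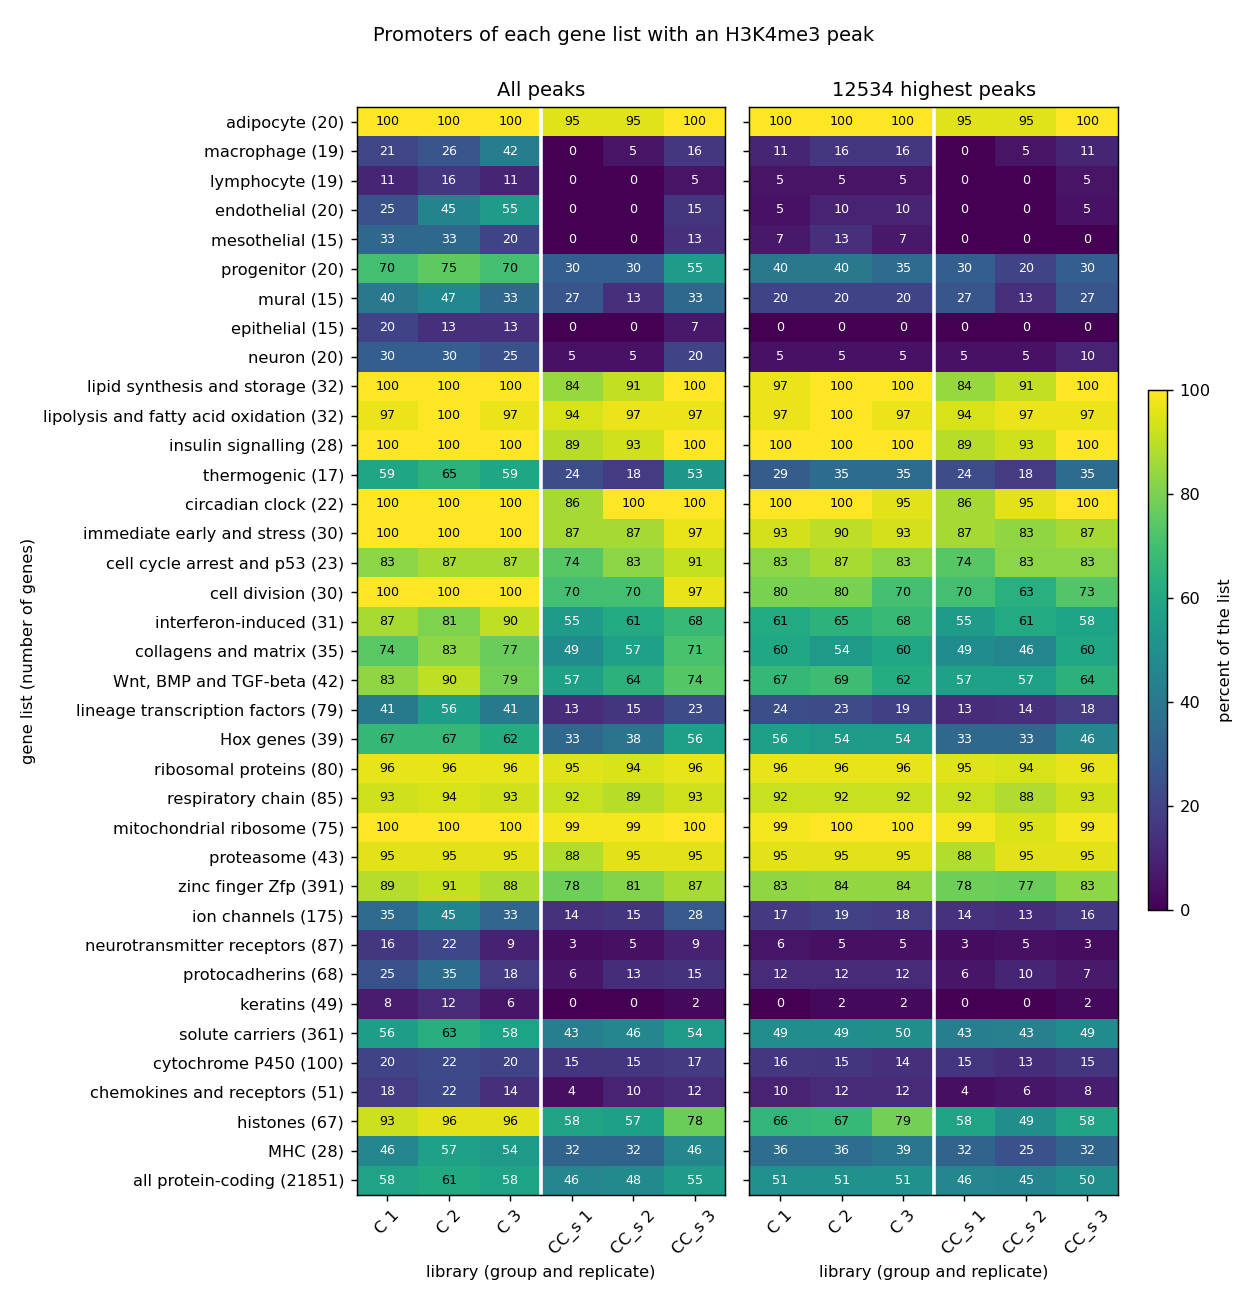
Percent of the promoters of each gene list with an H3K4me3 peak in each C and CC_s library, with all peaks (left) and with the 12534 highest peaks of each library (right), and the number of genes in parentheses. Adipocyte, ribosomal and mitochondrial lists stay at 88 or more in every library on both sides, while progenitor, lineage factor and histone lists are lower in each CC_s than in each C library with all peaks.

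Other marks were measured in nuclei of the same groups and did not enter the choice of the lost promoters. H3K27me3 lay at 43.01%, 51.2% and 51.5% of the 379 in the C libraries and at 50.7%, 51.5% and 52.5% in the CC_s libraries. The difference of 2.99 percentage points was within the spread of the C libraries (exact permutation p = 0.5). At the kept promoters the shares were 2.58% ± 0.806 in C and 2.65% ± 0.110 in CC_s. Over all promoters they were 15.1% in C and 15.9% in CC_s, and at promoters marked in 0 of 6 libraries 22.7% and 24.4%. At the 136 promoters lost at equal peak numbers they were 34.8% and 33.8%. At 18 weeks, by a mark present in at least 2 of 3 C libraries, 181 of the 379 (47.8%) carried H3K27me3 without H3K27ac, 22 (5.80%) H3K27ac without H3K27me3, 3 both and 173 (45.6%) neither. Of the 136 lost at equal peak numbers, 43 (31.6%) carried H3K27me3 without H3K27ac and 81 (59.6%) neither. Of the kept promoters 0.923% and 20.9% did.

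H3K27ac, the mark of active promoters and enhancers, lay at 6.33%, 7.12% and 8.44% of the lost promoters in C and at 3.43% and 7.92% in the 2 CC_s libraries (exact permutation p = 0.5, smallest possible 0.1). At the kept promoters it lay at 76.9% ± 2.79 in C and 71.9% ± 14.9 in CC_s. H3K4me1 lay at 8.44% ± 2.09 of the lost in C and 7.48% ± 4.27 in CC_s (n = 3 each, exact permutation p = 0.9). For each of the 3 marks the difference between the ages was smaller than the SD of at least 1 group.

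**Figure D5:**
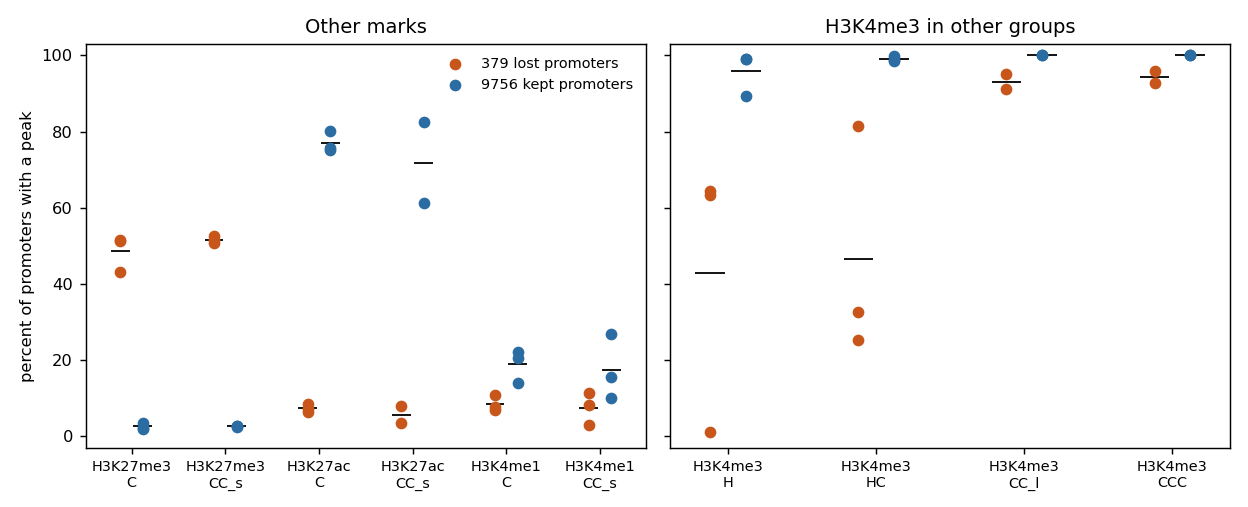
Percent of the 379 lost and of the 9756 kept promoters with a peak of H3K27me3, H3K27ac or H3K4me1 in C and CC_s libraries (left) and of H3K4me3 in H, HC, CC_l and CCC libraries (right). Points are libraries and lines are means, and the lost promoters lie near 50 for H3K27me3 at both ages and above 91 for H3K4me3 in all CC_l and CCC libraries.

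H3K4me3 was present at most of the lost promoters in older chow-fed mice of another cohort. In chow controls of 31 weeks (CC_l) 91.3% and 94.99% of the 379 were marked, and in those of 39 weeks (CCC) 95.8% and 92.9%. Of the 379, 342 were marked in 2 of 2 and 6 in 0 of 2 CCC libraries. These lists were longer, with 32225 to 35776 peaks. For the 25-week cohort some treatment fields differ from the titles, and with those fields in place of the titles CCC minus CC_l was 1.72 percentage points in place of 1.19. In H and HC mice, which belonged with C and CC_s to the cohort with 12 weeks of diet and had eaten high-fat diet, the share was higher in the libraries with longer lists. It was 63.3%, 64.4% and 1.06% in H libraries of 20974, 23137 and 11249 peaks, and 32.7%, 25.3% and 81.5% in HC libraries of 18645, 16757 and 24506 peaks. HC minus H was 3.61 percentage points (exact permutation p = 1).

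At promoters marked in all 6 libraries few differences in the level of H3K4me3 passed the test. The level was the log2 of the summed total signal of the peaks at a promoter minus the library's median over the 9756 kept promoters. The median absolute difference between the ages was 0.17, and the levels correlated across promoters with r from 0.824 to 0.934 between libraries. With limma and Benjamini-Hochberg adjustment, 1 promoter was higher (0.0103%) and 8 were lower (0.082%) in CC_s, and 1029 had an unadjusted p under 0.05.

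Id2, an inhibitor of differentiation that blocks basic helix-loop-helix factors, had levels of 0.85, 0.67 and 0.96 in C and -1.01, -0.54 and -0.67 in CC_s. All C values lay above all CC_s values, and the difference was -1.57 (SE 0.18, limma adjusted p = 0.00782). H2-Ke6, a steroid dehydrogenase gene within the MHC, had levels of 1.21, 1.605 and 1.503 in C and -0.70, 0.26 and -0.40 in CC_s (difference -1.72, SE 0.22, adjusted p = 0.0192). The other falls were those of 2310011J03Rik (-1.65), Tgif1 (a repressor in TGF-beta signalling, -1.52), Grhpr (glyoxylate reductase, -1.33), Trappc5 (a vesicle tethering subunit, -1.27), Hyal3 (a hyaluronidase, -1.18) and Ccnd3 (cyclin D3, -0.92), with adjusted p between 0.0048 and 0.0493. Usp22, a deubiquitinase of the SAGA complex, was the gene that rose, with levels of 0.01, 0.17 and 0.27 in C and 1.21, 1.15 and 0.91 in CC_s (difference 0.94, SE 0.15, adjusted p = 0.0493).

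The 8 falls went with narrower peaks, and width is part of the summed signal by which they were called. Peaks were narrower in CC_s at the 9756 kept promoters too. The median width of the widest peak there was 2414.5, 2686 and 2690.5 bp in C and 1316, 1418 and 2341 bp in CC_s. At Id2 the peaks summed to 6852, 8457 and 7242 bp in C and 550, 970 and 2330 bp in CC_s, and at H2-Ke6 to 5484, 12070 and 9048 bp against 764, 1815 and 2151 bp. At Usp22 they summed to 2141, 2765 and 2463 bp against 2841, 2141 and 2554 bp. With the maximum signal in place of the summed signal, 0 of the 9 passed, their differences ran from -0.56 to 0.60, and limma called 4 others higher (Arhgef3, Hist1h3g, Myh14 and Tcea3) and 0 lower, with 1220 at an unadjusted p under 0.05. Without C replicate 2 or C replicate 3 limma called 0 in either direction, with 527 and 674 at an unadjusted p under 0.05, and without CC_s replicate 3 it called 1 higher and 49 lower.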

How the data were processed

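CUT&Tag of H3K4me3 was analysed in 3 C and 3 CC_s libraries, with the H3K27ac, H3K27me3 and H3K4me1 libraries of both groups and the H3K4me3 libraries of H, HC, CC_l and CCC beside them. Per the labels, the authors trimmed reads with Trim Galore 0.6.6, aligned them with Bowtie2 2.4.4, handled them with SAMtools 1.13 and bedtools 2.30 and called peaks in each library with SEACR 1.3 (per the study's methods, stringent, top 1%). The deposited lists give total and maximum signal (coverage summed over a peak, and its highest value) and are not scaled to depth, so a deeper library can give more and wider peaks. The study tested read counts, which were not used here. Promoters came from the basic GENCODE vM21 annotation. Levels were tested on a log2 scale with limma 3.58.1 (trend) in R 4.3.3. Values of libraries were compared by exact permutation. The scripts were tested on simulated data. Members and gene lists were chosen with earlier results of these data known. Genes were named by rank of their C peaks (up to 12 lost, 8 gained and 4 for each list). The replicates are separate mice per the labels, numbered alike in both groups without pairing. The alternatives tried were other windows, rankings, scalings and library subsets. Groups HH and HHC were left out of these comparisons.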

Additional observations from a re-analysis of the deposited data

How the results depend on the processing

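The number of lost promoters stayed above that of gained ones with all peaks when a library was left out (381 to 1328), but not under every way of making the lists equal. Leaving out a library only loosens the rule for lost and gained, so neither count could fall. With equal numbers of marked promoters 43 were lost and 54 gained. At equal peak numbers 171 to 446 were lost and 8 to 18 gained when a library was left out. Ranked by maximum signal they were 88 and 1, at equal covered base pairs 4 and 404, and with 10000 peaks 20 were gained. With the region of maximum signal in the window 8 were gained with all peaks and 13 at equal numbers. The share of peaks at promoters turned to -0.715 percentage points at equal numbers. Falls in level numbered 0 to 49 and rises 0 to 1 without a library. The maximum signal gave 4 rises and 0 falls (limma, 1220 at an unadjusted p under 0.05) and turned 2310011J03Rik to 0.177 and Trappc5 to 0.0297, quantile scaling gave 0 rises (1037 unadjusted), and 12 libraries in the fit gave 0 rises and 1 fall (386 unadjusted). The replicate block gave 0 rises and 8 falls (1070 unadjusted), 6 of them among the 8. The exact permutation test within numbers gave p = 0.25 for peak number (-0.613), the smallest p that 3 shared numbers allow. Numbers shared between ages showed correlations of deviations of 0.0324, 0.0183 and 0.119, and 4 of 6 libraries correlated best with their own number, and the labels give the numbers no shared origin. At the lost promoters, differences within the spread changed sign. H3K27ac ran from -3.87 to 0.616 without a library and was 3.45 after the change at kept promoters was subtracted, H3K4me1 from -2.90 to 1.32 and 0.413, HC minus H from -17.3 to 14.3 and -0.264 at equal peak numbers, and CCC minus CC_l from -0.66 to 3.03. H3K27me3 was -0.980 at promoters lost at equal peak numbers. The cause was not tested for any of these. Read depth is unknown and limits whether a weak peak could be called at all, 3 mice in each group cannot give an exact p under 0.1, and a promoter without a peak may still carry the mark.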
